A study of Mus musculus with 17 samples.

Results

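Livers of male mice fed a diet with 1.9% fish oil were compared with livers of male mice fed a control diet. The fish oil group gave 1 RNA and the control group 2, and each RNA was hybridised to both oligonucleotide arrays of a pair, called chip A and chip B, which makes 6 of the 17 arrays of the series. Both groups were chosen by diet and tissue alone. The mice were of the outbred stock Rj:NMRI, held 10 to a cage, and were killed on day 57 or 58 after eating purified powdered diets. All diets shared a fat-free rodent base with milk fat, palm olein, 1.9% sunflower oil, 1.5% soybean oil and between 2.1 and 5.1% medium chain triacylglycerol oil. In the fish oil diet, fish oil took the place of some of that last oil and supplied docosahexaenoate (DHA) at 0.5% of diet weight. The other 2 liver RNAs, from mice fed 1.1% of a fungal oil rich in arachidonate and from mice fed both oils, entered the statistical fit and are used below to read fish oil on top of fungal oil. Per the labels, 10 mice ate each diet, food was left in place overnight so that mice had gone 0 to 6 h without food, and 5 mice of a diet were chosen for analysis. The labels used here do not say whether an RNA holds 1 liver or a pool, nor that the 2 control RNAs came from separate animals. The p-values below therefore reflect how far the control RNAs lay apart and no more, a spread that may be technical. Effects of diet, of the cage and of the day of killing cannot be told apart.

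Each value is an average-difference intensity, the brightness of a gene's probes after background subtraction, and values below a floor of 15 were set to it before taking log2. Of 13069 probe sets, 6537 averaged no less over the 5 liver RNAs than the median probe set of the same chip and were kept, 3265 on chip A and 3272 on chip B. They name 3515 genes, each represented by its brightest kept probe set. Differences are log2 of fish oil minus the mean log2 of the controls, and a gene is counted as 1.5-fold outside the controls only if it passed the nearer control by that much. Over all genes kept, 4.24% lay at least 1.5-fold above both controls, 7.71% at least 1.5-fold below both, 36.5% above both by any amount and 37.4% below both. These shares are the background for the counts below of genes set against the controls. Over the 1878 of these genes in the bright subset defined below, the same shares were 2.08%, 3.25%, 39.4% and 35.2%. The gene lists describe these RNAs and were not tested as lists.

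Long-chain polyunsaturated fatty acids such as DHA reach the liver in chylomicron remnants and act there as fuel, as membrane lipid and as signals. They bind PPAR-alpha, a nuclear receptor that pairs with RXR and switches on genes for fatty acid uptake, mitochondrial and peroxisomal oxidation and omega-hydroxylation. They also lower the activity of SREBP-1c, the factor that drives genes for making fatty acids.

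The arrays carried liver RNA by their markers. Of 15 hepatocyte markers listed 8 were kept, and their summed intensity was 66987 with fish oil, against 58853 and 51228 in the controls. Albumin (Alb) read 13435 with fish oil and 12999 and 10590 in the controls, and fetuin (Ahsg) read 11237 against 8855 and 8790. Of the 8, 5 were above both controls and 2 below both, Ttr at 1160 against 1292 and 1323 (-0.17) and Apoa1 at 62 against 107 and 97 (-0.72). Their median difference was 0.24, but 0.01 after quantile normalization and 0.11 without control 2. The labels give the source as liver or hepatocytes, and genes of macrophages, endothelium, connective tissue and red cells were measured too. Signs of RNA breakdown were split between the chips. The ratio of 3′ to 5′ Gapdh signal, higher in degraded RNA, was 1.95 with fish oil on chip A and 2.07 and 1.91 in the controls, but 3.26 on chip B against 2.23 and 1.99, while the actin ratio on chip B was 3.33 against 3.71 and 3.38. Chip B was also the noisier chip, with a standard deviation of 0.80 for the log2 difference between the controls over its kept probe sets, against 0.50 on chip A. The part of RNA quality in the chip B results was not tested.

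Across all 6537 probe sets kept, no gene passed the test. Limma called 0 (0.0%) at an adjusted p under 0.05, with a lowest adjusted p of 0.375 and 724 probe sets at an unadjusted p under 0.05. Only the controls are replicated, so that fit has 1 residual degree of freedom. When only probe sets averaging no less than percentile 75 of their chip were fitted, a bright subset of 3269, limma called 39 (1.19%), 16 higher and 23 lower with fish oil. Of the 39, 24 carry a gene name, for 22 genes, and the unnamed rises ranged from 0.47 to 3.31. The rise of 3.31 read 315 with fish oil, 28 and 36 in the controls, 61 with fungal oil and 449 with both oils. A mean of 139.2 was needed on its chip, so it entered the bright subset only through the RNAs with fish oil. Its call is therefore no support of its own. Of the unnamed falls 4 read below the floor with fish oil, each at least 10.7-fold under the lower control, and the others ranged from -3.17 to -1.17. Those that read 53 and 40 with fish oil were also below 139.2 with fungal oil and with both oils. They entered the bright subset through their controls. The words "rose" and "fell" are used below of these calls alone. Standard errors come from the fit of the bright subset for calls and wherever an adjusted p is printed, and otherwise from the fit over all probe sets kept. The calls depended on the settings, which limits all of them: 10 were left without an intensity trend in the variance, 3 were called after quantile normalization, of which 2 are among the 39, and 0 in a fit that assumes additive oils (265 at an unadjusted p under 0.05). Fabp5 was called in the bright subset under all of these settings except the additive fit.

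Among the falls, the largest of a named gene was that of Fabp5, an intracellular carrier of fatty acids better known from skin and fat. Fabp5 read 384 with fish oil, against 3334 and 3137 in the controls, so it was 8.42-fold lower (-3.07, SE 0.16, adjusted p = 0.0027). Apoa4, the apolipoprotein of triglyceride-rich particles, read 629 with fish oil and 1987 and 2034 in the controls (-1.68, SE 0.12, adjusted p = 0.0117). Both genes carry or ship lipid, and the controls of each lay close together. Acly, which cleaves exported citrate into the acetyl-CoA for fatty acid synthesis, fell on both chips. On chip A it read 1754 with fish oil and 3118 and 3275 in the controls (-0.87, SE 0.10, adjusted p = 0.0413), and a dimmer probe set on chip B read 64 against 361 and 550 (-2.80, SE 0.41, adjusted p = 0.0441). The fish oil value was below both controls at each, but the sizes differ by more than 1.5-fold between the chips. The chip B probe set also read 115 with fungal oil and 51 with both oils. Those values are below the 139.2 needed for the bright subset, which it entered through its controls. Its call is therefore no separate support for the one on chip A.

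Several of the other falls were of genes outside lipid metabolism. Neat1, the long noncoding RNA that builds nuclear paraspeckles, read 384 with fish oil, against 1218 and 1269 in the controls (-1.69, SE 0.13, adjusted p = 0.0117). Mpeg1, which encodes a pore-forming protein of macrophages, read 211 against 705 and 802 (-1.83, SE 0.19, adjusted p = 0.0185). In bulk liver, fewer macrophages and less Mpeg1 RNA per macrophage cannot be told apart. Cdh1, which encodes the epithelial adhesion protein E-cadherin, read 130 with fish oil and 492 and 455 in the controls (-1.86, SE 0.23, adjusted p = 0.0313). Aqp8, a water channel of the canalicular membrane and of mitochondria, read 364 against 741 and 815 (-1.09, SE 0.14). The ribonuclease angiogenin (Ang) read 84 against 229 and 232 (-1.46, SE 0.19), Wbp1 62 against 221 and 259 (-1.95, SE 0.24), and Grina 207 against 428 and 454 (-1.09, SE 0.14). None of these genes had a fish oil value that reached its lower control.

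Other probe sets of the same gene did not always repeat a fall. Lypd8, a surface protein of gut epithelium, read 69 with fish oil and 373 and 335 in the controls at the probe set called (-2.36, SE 0.17, adjusted p = 0.0117), but 62 against 79 and 57 at a dimmer one (-0.11). Tmem59 fell at a probe set that read 169 against 416 and 415 (-1.30, SE 0.15), whereas its brightest probe set read 982 against 867 and 961 (0.11). The brightest probe set of Ang read 883 against 1152 and 1433 (-0.54), lower by less than the one called. The falls of Fabp5, Apoa4, Neat1 and Cdh1 each rest on 1 kept probe set.

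**Figure D1:**
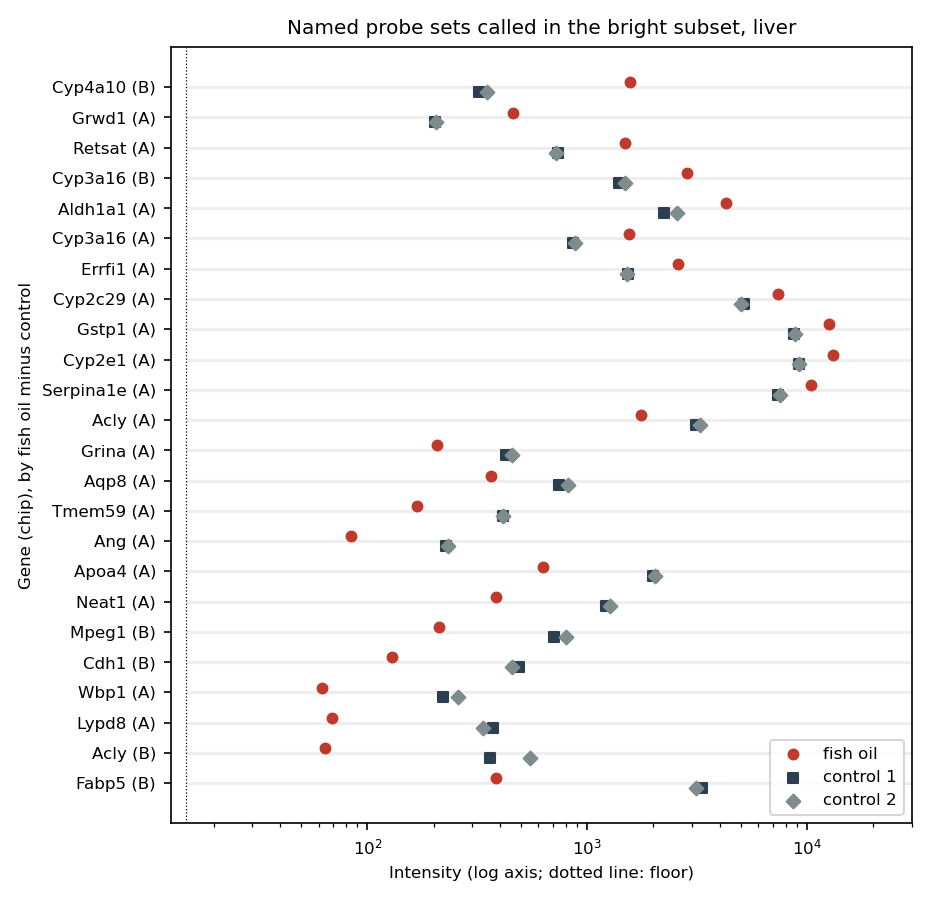
Intensity on a log axis of the 24 named probe sets called in the bright subset, 1 line per gene and chip, with fish oil as circles above the control RNAs as squares and diamonds. In every line the fish oil value lies outside both controls, from Cyp4a10 at the top (1566 against 321 and 349) to Fabp5 at the bottom (384 against 3334 and 3137).

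The rises were led by Cyp4a10, a cytochrome P450 that adds an oxygen to the far end of fatty acids and a classic target of PPAR-alpha in rodents. Cyp4a10 read 1566 with fish oil and 321 and 349 in the controls, 4.68-fold higher (2.23, SE 0.17, adjusted p = 0.00811). Retsat, which saturates retinol and is also a PPAR-alpha target, read 1485 against 733 and 723 (1.03, SE 0.12, adjusted p = 0.0403), although a dimmer probe set of it read 46 against 79 and 70 (-0.69). Errfi1, a feedback inhibitor of EGF receptor signalling, read 2601 with fish oil and 1534 and 1510 in the controls (0.77, SE 0.10, adjusted p = 0.0441). Grwd1, a ribosome assembly protein, read 461 against 204 and 206 (1.17, SE 0.15). All 4 fish oil values were clear of both controls.

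The remaining named rises were of enzymes and secreted proteins made in large amounts by hepatocytes. Cyp3a16 rose on both chips, with 2835 against 1398 and 1478 on chip B (0.98, SE 0.15) and 1546 against 861 and 882 on chip A (0.83, SE 0.11). Aldh1a1, which oxidises retinal to retinoic acid, read 4274 with fish oil and 2225 and 2548 in the controls (0.84, SE 0.11, adjusted p = 0.0441). Cyp2c29, a drug and arachidonate oxidase, read 7384 against 5191 and 4996 (0.54, SE 0.07). Cyp2e1, the ethanol-inducible P450, read 13101 against 9172 and 9171 (0.51, SE 0.05, adjusted p = 0.0313), Gstp1, a glutathione transferase, 12575 against 8730 and 8844 (0.52, SE 0.05), and Serpina1e, a protease inhibitor of plasma, 10464 against 7402 and 7511 (0.49, SE 0.06). Genes of these families are near-identical in sequence, so an intensity may hold signal from relatives such as Cyp3a11 or other Serpina1 copies.

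The brightest of these genes lay in a range where probe sets in general read higher on the fish oil arrays. Among the 237 probe sets with mean intensities of 3000 and above the median difference was 0.18, against 0.07 between the controls, and among the 2328 under 100 it was -0.01. Quantile normalization, which removes such a shift, reduced Cyp2e1 to 0.12, Gstp1 to 0.10, Serpina1e to 0.13 and Cyp2c29 to 0.31, and left Cyp4a10 at 2.19, Grwd1 at 1.20, Retsat at 0.98 and Errfi1 at 0.66.

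**Figure D2:**
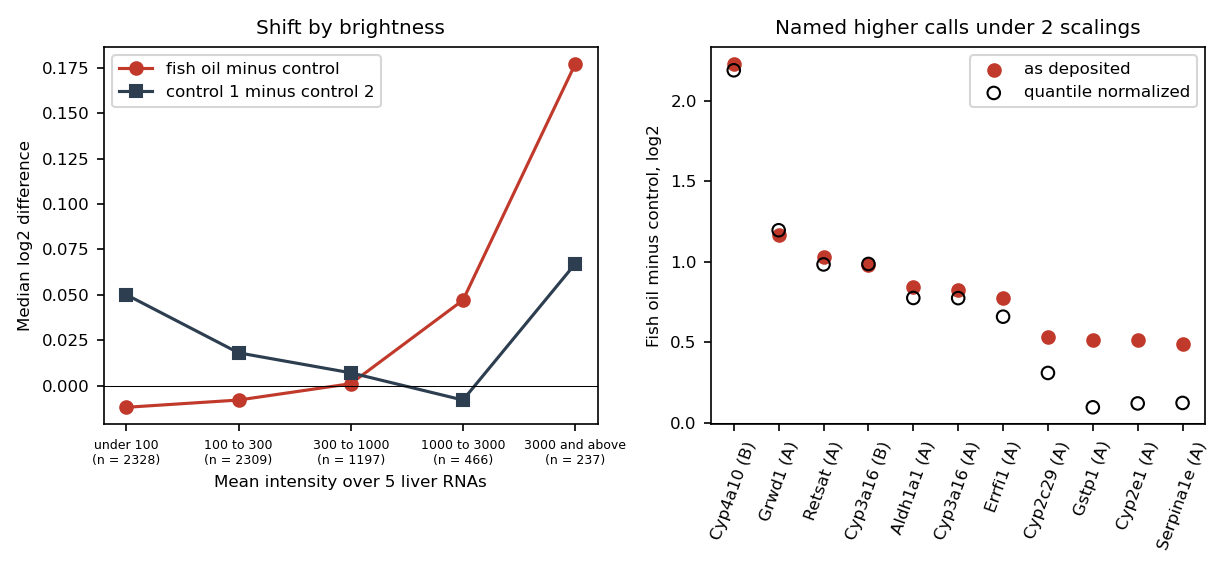
Left, the median log2 difference over probe sets by mean intensity, for fish oil minus control (circles) and for control 1 minus control 2 (squares), rising to 0.18 and 0.07 in the brightest class. Right, log2 differences of the named rises with the intensities as deposited (filled) and after quantile normalization (open), where Gstp1, Cyp2e1 and Serpina1e lose most of their difference and Cyp4a10 keeps it.

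Fatty acid oxidation read higher with fish oil at nearly every step measured. All 14 mitochondrial and 9 peroxisomal genes kept were in the bright subset, and none was called, so these are values beside the spread of the controls. Of the 14 mitochondrial genes 12 were above both controls and 1 below both, with a median of 0.37, against a median of 0.00 over all genes and of -0.025 between the controls. Only 2 of the 14 were 1.5-fold or more above both. Cpt2, which reforms acyl-CoA inside mitochondria, read 791 with fish oil and 408 and 428 in the controls (0.92, SE 0.11). Its partners in the carnitine shuttle lay higher as well, with Cpt1a, the gate of the shuttle, at 1058 against 604 and 864 (0.55, SE 0.27) and the carrier Slc25a20 at 790 against 487 and 550 (0.61, SE 0.13). Decr1, which prepares polyunsaturated fatty acids for oxidation, read 935 against 608 and 616 (0.61, SE 0.10).

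The acyl-CoA dehydrogenases, which take the first step of each cycle, were higher by similar amounts. The short-chain enzyme Acads read 1235 with fish oil and 855 and 919 in the controls (0.48), the medium-chain Acadm 1774 against 1357 and 1371 (0.38), the long-chain Acadl 415 against 319 and 318 (0.38), and the very-long-chain Acadvl 1594 against 1355 and 1246 (0.29). Each was above both controls at its brightest probe set, but a dimmer one of Acadm read 940 against 828 and 969 (0.07), between them. The later enzymes lay closer to the controls, with Hadha at 1235 against 1136 and 1160 (0.11) and Acaa2, the closing thiolase, at 6330 against 6237 and 5752 (0.08), and Etfb, which takes up the electrons, read 1065 against 1073 and 1081 (-0.02). Acat1, a thiolase of ketone bodies and isoleucine breakdown that was listed apart, read 1810 against 1127 and 1145 (0.67, SE 0.08). The median of the 14 stayed between 0.33 and 0.38 on chip A by itself, after quantile normalization and without either control.

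Of the 9 peroxisomal genes 8 were above both controls and 0 below both, with a median of 0.28. Ech1, an isomerase for double bonds of unsaturated fatty acids, read 2031 with fish oil and 1226 and 1252 in the controls (0.71, SE 0.08). Crat, which ships acetyl and short acyl groups out as carnitine esters, read 262 against 182 and 206 (0.44) on chip A and 190 against 57 and 58 (1.72) on chip B, and the bifunctional enzyme Hsd17b4 2300 against 1793 and 1898 (0.32). Scp2, a thiolase and sterol carrier, read 8744 against 7283 and 7085 (0.28), while the membrane transporter Abcd3 lay between its controls at 1739 against 1709 and 1798 (-0.01). A dimmer probe set of Abcd3 read 770 against 611 and 737 (0.20). Under quantile normalization the median was 0.11, with 6 of 9 above both controls.

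The Cyp4 omega-hydroxylases varied widely among themselves. Cyp4a14 read 385 with fish oil and was below the floor in both controls, at least 25.7-fold higher, and was too dim on average for the bright subset. Both controls were under 29.6, the mean needed on chip B, so Cyp4a14 was kept only through the oil diets. Its difference is therefore no support of its own. Beside Cyp4a10, the relative Cyp4a31 read 193 against 132 and 129 (0.56) and Cyp4v3 922 against 756 and 763 (0.28), while Cyp4b1, mainly a lung enzyme, read 68 against 98 and 102 (-0.56). A further list held other targets of PPAR-alpha together with the receptor gene Ppara and its partner Rxra. Of its 11 kept genes 7 were above both controls, 2 below both, and the median was 0.26. Rxra was among those above (1.69) but is too dim to place. Angptl4, an inhibitor of lipoprotein lipase, read 184 against 75 and 133 (0.88, SE 0.43) and Vnn1, a pantetheinase, 105 against 43 and 78 (0.86, SE 0.48), where the controls lay far apart. The receptor itself, Ppara, read 1243 with fish oil and 1158 and 1325 in the controls (0.01), between the controls.

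**Figure D3:**
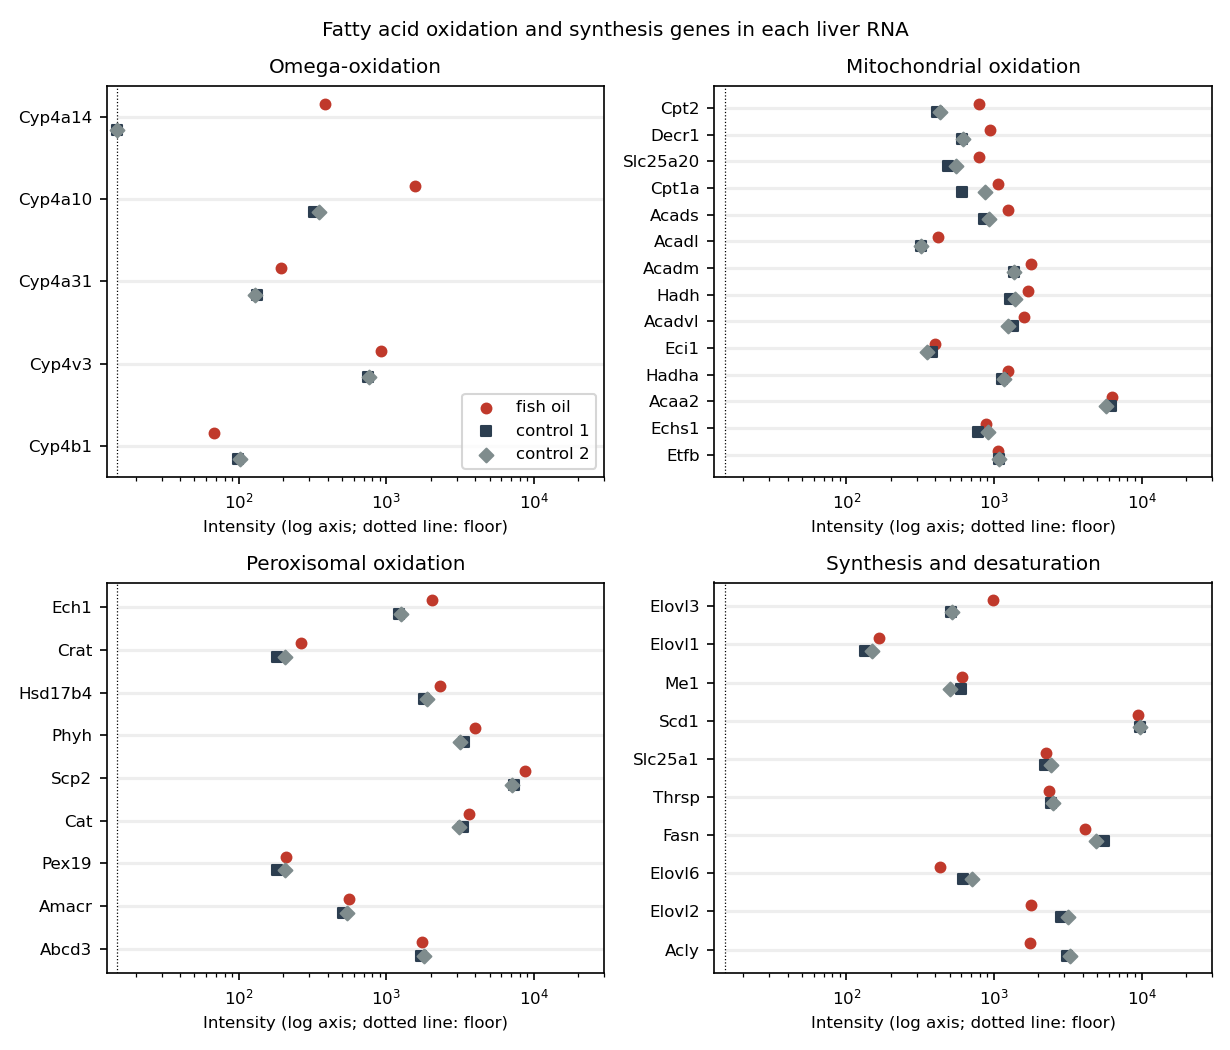
Intensity on a log axis of each kept gene of omega-oxidation, mitochondrial oxidation, peroxisomal oxidation and fatty acid synthesis, with fish oil as circles above the control RNAs. In the 3 oxidation panels nearly all circles lie right of both controls, and in the synthesis panel Elovl3 lies right of them and Acly and Elovl2 lie left.

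Fatty acid uptake and binding held Fabp5 on the lower side and Cd36 on the higher side. Cd36, the fatty acid translocase of the plasma membrane, read 591 with fish oil and 280 and 213 in the controls on chip B (1.27, SE 0.27), with 208 against 118 and 162 on chip A (0.59). The liver carrier Fabp1 read 10333 against 7849 and 7694 (0.41, SE 0.06), and Fabp2, its gut relative, 220 against 238 and 221 (-0.06), so Fabp5 was the only 1 of these 3 carriers to fall by the test. A dimmer probe set of Fabp1 read 111 against 132 and 131 (-0.24). Of 8 kept genes 6 were above both controls and 2 below both, with a median of 0.24. Under quantile normalization the median was 0.08, with 4 above both and 1 below both. Slc27a2, a very-long-chain acyl-CoA synthetase and transporter, read 3472 against 2926 and 3006 (0.23).

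The promoters of 18 genes of the lipid lists that lay 1.5-fold outside both controls were read for the element that PPAR-alpha and RXR bind, a direct repeat of AGGTCA with 1 base between (AGGTCANAGGTCA). Those of Cd36, Cpt2, Acly and Apoa4 are shown, members of the uptake, oxidation, synthesis and lipoprotein lists that lay outside both controls. Up to 2 mismatches in the 12 fixed letters were allowed on either strand, and 3.86% of all 32851 mouse promoters in the table, each 300 bases from 250 before the start of the transcript, hold such a match. Entries were found for 12 of these genes (RefSeq, GRCm38.p6), 5 higher and 7 lower. A match was found for Cd36 and in 1 of 2 promoters of Rxra, and for none of the other 10 genes. Rxra read 75 with fish oil, against -84 and 36 in the controls, too dim to place, so no contrast between higher and lower genes is read from these counts. Decr1, Cyp4a10, Cyp4a14, Acat1, Fabp5 and Elovl3 had no entry. Capitals mark the repeat and any lone AGGTCA unit, which 16.3% of all promoters hold. The Cd36 match begins 63 bases before the start with 10 of 12 letters, Cd36 and Acly hold a lone unit and Cpt2 and Apoa4 hold neither. A match is a description of the letters and not a site.
Cd36, chr5:17835847-17836146, minus strand: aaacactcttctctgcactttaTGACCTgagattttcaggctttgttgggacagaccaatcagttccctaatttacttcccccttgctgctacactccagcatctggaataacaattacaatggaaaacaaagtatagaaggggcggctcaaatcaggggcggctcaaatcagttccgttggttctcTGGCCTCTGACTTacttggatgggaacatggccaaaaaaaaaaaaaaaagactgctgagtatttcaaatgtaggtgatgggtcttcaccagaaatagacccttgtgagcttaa
Cpt2, chr4:107923540-107923839, minus strand: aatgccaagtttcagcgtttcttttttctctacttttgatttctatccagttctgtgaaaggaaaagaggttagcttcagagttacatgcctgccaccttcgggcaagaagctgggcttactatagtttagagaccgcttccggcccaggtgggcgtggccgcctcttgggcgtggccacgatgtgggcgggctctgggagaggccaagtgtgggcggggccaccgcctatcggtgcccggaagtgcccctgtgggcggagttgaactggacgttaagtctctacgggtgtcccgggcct
Acly, chr11:100527951-100528250, minus strand: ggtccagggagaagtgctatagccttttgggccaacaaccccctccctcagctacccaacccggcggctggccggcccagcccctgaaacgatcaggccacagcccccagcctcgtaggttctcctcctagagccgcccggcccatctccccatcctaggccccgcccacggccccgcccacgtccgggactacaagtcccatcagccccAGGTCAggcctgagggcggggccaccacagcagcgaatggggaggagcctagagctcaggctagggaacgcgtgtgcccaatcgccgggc
Apoa4, chr9:46240594-46240893, plus strand: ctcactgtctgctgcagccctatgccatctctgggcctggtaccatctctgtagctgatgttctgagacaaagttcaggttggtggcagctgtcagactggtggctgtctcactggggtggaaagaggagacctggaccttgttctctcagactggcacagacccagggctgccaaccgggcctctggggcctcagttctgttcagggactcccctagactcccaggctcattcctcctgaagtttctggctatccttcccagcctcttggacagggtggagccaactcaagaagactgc

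Fatty acid synthesis was divided. Beside Acly, the elongase Elovl2, which extends polyunsaturated chains on the way to DHA, read 1780 with fish oil and 2853 and 3167 in the controls (-0.76, SE 0.11, adjusted p = 0.0555 in the bright subset). Elovl6, which extends palmitate, read 431 against 618 and 714 (-0.62, SE 0.15), and the synthase Fasn 4104 against 5522 and 4906 (-0.34, SE 0.14). Other lipogenic genes lay close to the controls: the desaturase Scd1 read 9493 against 9754 and 9811 (-0.04), Thrsp, a lipogenic regulator, 2353 against 2444 and 2518 (-0.08) and malic enzyme Me1 605 against 593 and 501 (0.15). Elovl3, an elongase with high levels in male liver, read higher at 983 against 513 and 520 (0.93, SE 0.14). Over the 10 kept genes 3 were above both controls and 6 below both, with a median of -0.06, which was -0.27 under quantile normalization and -0.11 without control 1.

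Enzymes that feed synthesis with carbon and NADPH leaned lower. Of 11 kept, 0 were above both controls and 8 below both, with a median of -0.25. Pgd, of the pentose phosphate pathway, was below the floor with fish oil and read 139 and 135 in the controls, at least 9-fold lower. The brighter members differed less, with aldolase Aldoa at 942 against 1153 and 1285 (-0.37), Tpi1 at 2223 against 2841 and 2496 (-0.26) and transketolase Tkt at 453 against 486 and 599 (-0.25). Of 5 cholesterol synthesis genes 4 were below both controls, among them Hmgcs1, the entry enzyme, at 1328 against 1506 and 1667 (-0.25), and Fdft1, squalene synthase, was above both at 562 against 457 and 474 (0.27). In glycerolipid assembly, Gpam read 989 against 1140 and 1228 (-0.26) and Gpd1, which makes glycerol phosphate, 6709 against 4994 and 4925 (0.44).

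Lipoprotein genes split by protein. Of 15 kept, 6 were above both controls and 9 below both. Apoc2, the cofactor of lipoprotein lipase, read 2143 with fish oil and 3233 and 3165 in the controls (-0.58, SE 0.11), and Apom, which carries sphingosine phosphate, 1003 against 1415 and 1348 (-0.46, SE 0.09). Apoa2, of high-density lipoprotein, read 17937 against 16032 and 13428 (0.29) and Apoe, the remnant ligand, 12074 against 10404 and 9734 (0.26) on chip B and 9632 against 6040 and 6809 (0.59) on chip A. The median was -0.08, or -0.13 without control 1 and -0.05 without control 2. Under quantile normalization 4 were above both and 8 below both.

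Cytochromes P450 of families 1 to 3 were higher almost throughout. Of 15 kept, 14 were above both controls, 3 of them at least 1.5-fold, with a median of 0.32, and Cyp3a16, Cyp2c29 and Cyp2e1 were called. Cyp3a11, a broad drug oxidase, read 8429 with fish oil and 4935 and 4618 in the controls (0.82, SE 0.13), and Cyp2b9, a steroid-responsive P450, 241 against 20 and 94 (2.47, SE 1.11), where the controls themselves differ several-fold. Cyp1a2, a caffeine and arylamine oxidase, was the exception at 7107 against 8658 and 7775 (-0.21). After quantile normalization 10 of the 15 were above both controls and 3 below both, with a median of 0.28. Of 25 kept conjugation and aldehyde enzymes 16 were above both controls and 3 below both, with a median of 0.24, or 0.11 under quantile normalization. They include alcohol dehydrogenase Adh1 at 4738 against 3189 and 3543 (0.50), Gstm1 at 6809 against 5385 and 5579 (0.31) and, on the lower side, the mitochondrial aldehyde dehydrogenase Aldh2 at 4731 against 8060 and 6861 (-0.65, SE 0.17), whose other probe set read 3727 against 4066 and 3748 (-0.07).

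In bile acid metabolism, 5 of 9 kept genes were above both controls and 1 below both, with a median of 0.33, which was 0.53 without control 1 and 0.20 without control 2. Abcc3, the basolateral exporter of conjugates, read 823 with fish oil and 490 and 518 in the controls (0.71, SE 0.11), and Abcb4, which places phosphatidylcholine into bile, 721 against 467 and 499 (0.58, SE 0.11). Cyp7b1, of the alternative synthesis route, read 1063 against 783 and 793 (0.43). The rate-limiting Cyp7a1 read 87 against 23 and 59, too dim to place (1.24, SE 0.80). Nr0b2, the repressor SHP, was lower at 758 against 1003 and 860 (-0.29).

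Haem synthesis read higher at most steps measured. Over 13 kept genes of haem synthesis and breakdown 9 were above both controls and 3 below both. Their median was 0.23, or 0.11 under quantile normalization. Alas1, the rate-limiting enzyme in liver, read 2265 with fish oil and 1299 and 1177 in the controls (0.87, SE 0.16, adjusted p = 0.0665 in the bright subset). The next enzymes were Alad at 5743 against 4053 and 3062 (0.71), Uros at 154 against 92 and 107 (0.63), Urod at 237 against 163 and 175 (0.49) and Cpox at 1214 against 871 and 767 (0.57), each above both controls. Ppox and Fech, which close the path, read 91 against 87 and 96 (-0.01) and 170 against 165 and 136 (0.18). The red cell isoform Alas2 was lower, at 612 against 1081 and 990 (-0.76, SE 0.14), while the haemoglobin gene Hba-a1 read 11494 against 9689 and 8267 (0.36). Summed red cell markers were 16271 with fish oil and 14072 and 11949 in the controls, with 4 of 16 kept.

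Of 24 kept genes of the urea cycle and amino acid breakdown 15 were above both controls and 3 below both, with a median of 0.14, or 0.04 on chip A alone. Hpd, of tyrosine breakdown, read 7229 against 5272 and 5323 (0.45) and arginase Arg1 2567 against 1958 and 1897 (0.41). Transaminases were divided. Agxt read 1584 against 2400 and 2296 (-0.57, SE 0.08) and Got1 656 against 1051 and 900 (-0.57, SE 0.14), while Oat read 1714 against 1574 and 1519 (0.15) and Got2 7709 against 6904 and 6051 (0.25). Genes of the pericentral zone of the lobule had a median of 0.59 over 8 genes, of which 7 were above both controls, and genes of the periportal zone 0.15 over 11, of which 8 were above both, so neither zone read lower. Against the same controls the pericentral median was 0.68 with fungal oil and 0.66 with both oils, and the periportal median 0.15 and 0.045. The higher pericentral median was thus not particular to fish oil. Glul, the pericentral glutamine synthetase, read 89 against 10 and 22, too dim to place. G6pc, which releases glucose, read 1669 against 969 and 1160 (0.65, SE 0.15). Of 8 genes with higher levels in male liver 7 were above both controls (median 0.45, or 0.14 under quantile normalization), among them the urinary protein gene Mup3 at 6582 against 4802 and 5012 (0.42). Only 2 genes with higher levels in female liver were kept, Cyp3a16 and Cyp2b9, and both were also at least 1.5-fold above both controls.

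**Figure D4:**
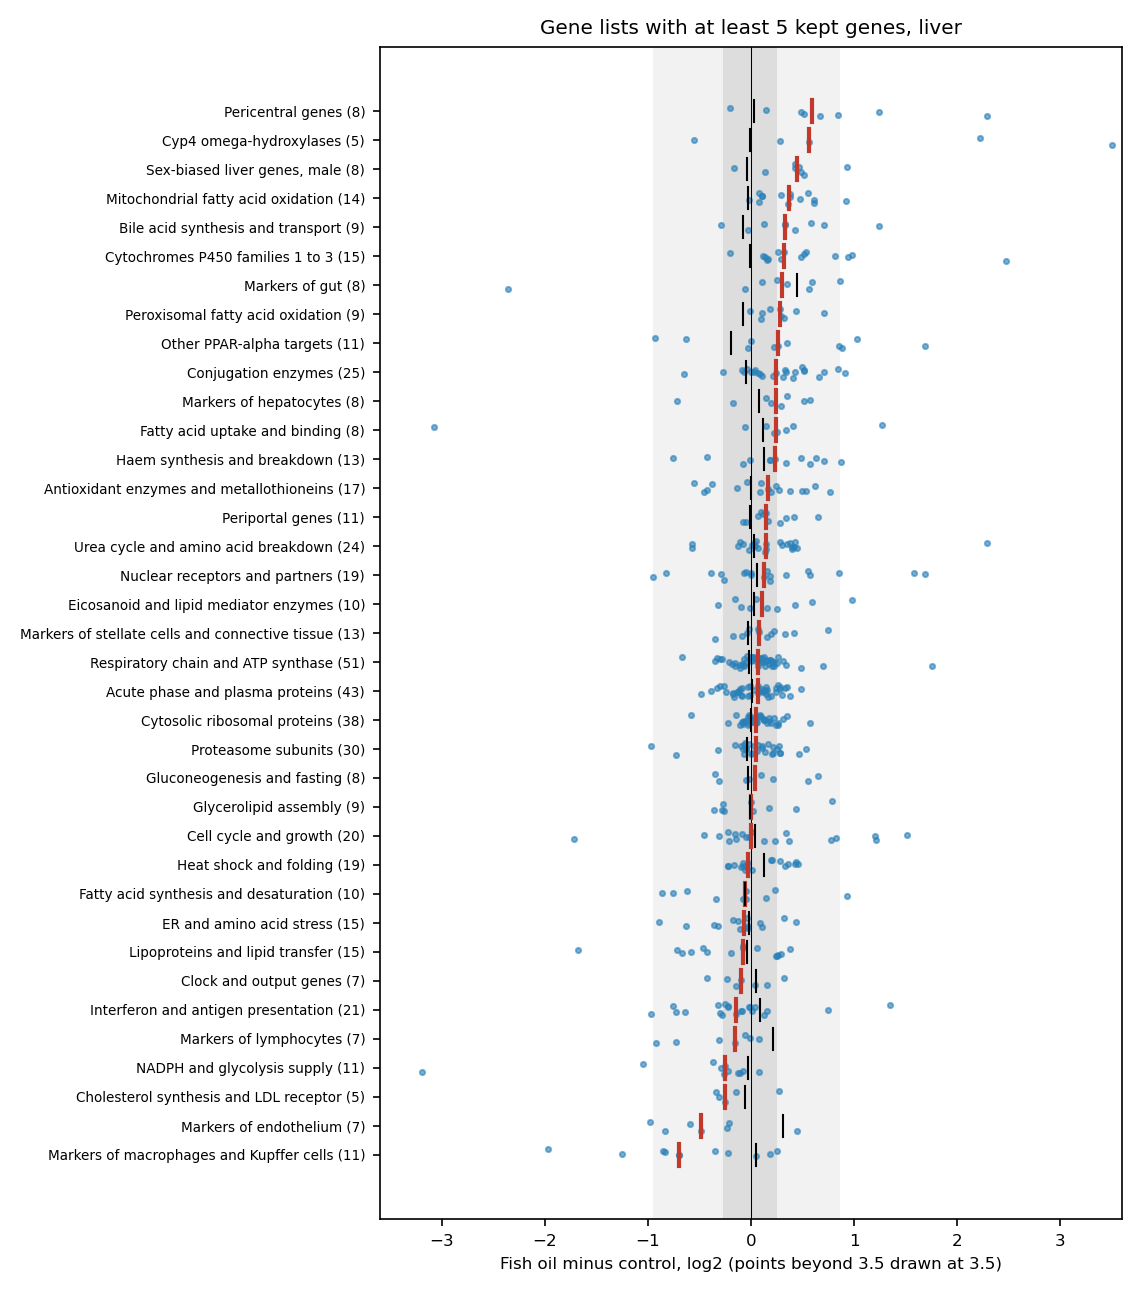
Log2 difference of fish oil minus control for each gene (points) of the 37 lists with at least 5 kept genes, with the list median as a red bar and the median of control 1 minus control 2 as a black bar. Shading spans the 5th to 95th (light, -0.94 to 0.86) and 25th to 75th (dark, -0.26 to 0.25) percentiles of all genes, and medians run from 0.59 for pericentral genes to -0.69 for macrophage markers.

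Marker genes of macrophages, which in liver are mostly Kupffer cells, were largely lower. Of 18 listed 11 were kept, of which 2 were above both controls, 8 below both and 5 at least 1.5-fold below both, with a median of -0.69. Their summed intensity was 2076 with fish oil, against 2649 and 2505 in the controls. The Kupffer lectin Clec4f read 90 against 180 and 254 (-1.25, SE 0.30), Cd5l 127 against 224 and 228 (-0.83, SE 0.15) and the complement gene C1qc 197 against 377 and 337 (-0.86, SE 0.18). Adgre1, which encodes F4/80, was below the floor with fish oil and read 55 and 63 in the controls. The general markers did not follow, with Lyz2 at 502 against 472 and 376 (0.25), Cd14 at 365 against 328 and 316 (0.18) and Fcer1g at 283 against 259 and 290 (0.05). The median was -0.23 on chip A alone and -0.15 in the bright subset. With fungal oil, set against the same controls, it was -0.64.

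Endothelial markers were lower too. Of 7 kept, 0 were above both controls and 5 below both, with a median of -0.49 and a sum of 1559 with fish oil, against 2260 and 2113 in the controls. The controls themselves differed by a median of 0.31 over these genes. With fungal oil, set against the same controls, the median was -0.89, and both oils minus fungal oil gave 0.38. Only 2 of the 7 were in the bright subset, and without the filter on dim probe sets the median was -0.23 over 9 genes. Eng, a TGF-beta co-receptor, read 899 against 1378 and 1326 (-0.59, SE 0.12) and Stab1, a scavenger receptor of sinusoidal endothelium, 62 against 129 and 116 (-0.98, SE 0.23). Connective tissue markers had a median of 0.07 over 13 genes, or 0.12 without control 1. Lymphocyte markers had a median of -0.16 over 7, or -0.05 without control 1 and -0.004 on chip A alone. Of 21 genes of interferon response and antigen presentation 4 were above both controls and 10 below both. The immunoproteasome subunits Psmb8, at 225 against 442 and 440 (-0.97, SE 0.16), and Psmb9, at 217 against 365 and 352 (-0.72, SE 0.17), were lowest among the brighter ones, but on chip A Psmb8 read 193 against 204 and 269 (-0.28) and Psmb9 84 against 77 and 90 (0.01). Of class I genes, B2m read 10481 against 9706 and 9120 (0.16), H2-D1 6148 against 6396 and 5798 (0.01) and H2-K1 2521 against 3023 and 3294 (-0.32). Of class II genes, Cd74, the invariant chain, read 414 against 555 and 753 (-0.64), and H2-Aa 194 against 232 and 164 (-0.01) at its brightest probe set and between -1.04 and 0.02 at the others. Whether cell makeup had a part in these differences was not tested.

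Genes of the stress responses showed few differences. Of 15 genes of ER and amino acid stress 4 were above both controls and 8 below both. Atf5, a stress transcription factor of mitochondria and ER, read 563 with fish oil and 875 and 864 in the controls (-0.63, SE 0.10), Herpud1, of ER-associated degradation, 1398 against 991 and 1076 (0.44) and Atf4 1045 against 1115 and 1129 (-0.10). Among 17 antioxidant genes 10 were above both controls and 5 below both, and the peroxiredoxins split, with cytosolic Prdx1 at 8761 against 6658 and 6779 (0.38) and mitochondrial Prdx3 at 309 against 445 and 464 (-0.56). Large housekeeping sets lay near 0, with medians of 0.05 over 38 ribosomal protein genes (-0.004 under quantile normalization), 0.05 over 30 proteasome genes and 0.07 over 51 genes of the respiratory chain. Glycerolipid assembly, heat shock and folding, and cell cycle genes had medians of -0.003 over 9, -0.03 over 19 and -0.004 over 20 genes, signs that turned under other settings. Plasma proteins had a median of 0.07 over 43 genes, or -0.03 under quantile normalization and 0.04 without control 1. At its brightest probe set none was 1.5-fold outside the controls. A dimmer probe set of the plasma protein gene Orm1 read 126 against 25 and 28 (2.25), opposite in sign to its brightest.

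Further bright genes stood 1.5-fold outside both controls without being called. On the higher side, Mpdu1, needed for protein mannosylation, read 543 with fish oil and 62 and 181 in the controls (2.36, SE 0.79), and S100a13, a small calcium-binding protein, 275 against 21 and 84 (2.71, SE 0.99), with controls that differ several-fold. Closer controls lay beneath Ctse, an endosomal protease, at 504 against 249 and 213 (1.13), Mypop at 617 against 312 and 265 (1.10), Abce1, a ribosome recycling factor, at 310 against 131 and 104 (1.41), and the dipeptidase Pepd at 278 against 134 and 122 (1.12). On the lower side were Anp32a, a phosphatase inhibitor, at 62 against 247 and 380 (-2.30), with 168 against 164 and 140 at another probe set (0.15), Samsn1, an adaptor of immune cells, at 217 against 615 and 484 (-1.33), Abcf1, a translation factor, at 83 against 201 and 247 (-1.42) and Cbl, a ubiquitin ligase, at 89 against 186 and 196 (-1.10). Over probe sets, 339 of 6537 (5.19%) were at least 1.5-fold above both controls and 605 (9.26%) below both, while the controls differed by that much from each other at 1384 probe sets (21.2%). The last count takes 1 pair of values in either direction. It is easier to meet than passing the nearer control in 1 direction, so these shares are not like for like.

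The liver of mice fed both oils, set against that of mice fed fungal oil, gave a further reading of fish oil that shares no array with the comparison above. Each side is 1 RNA, so the reading has no error of its own. Both RNAs also entered the mean that chose the bright subset, so the counts of signs below are not independent of that choice. Of the 39 calls 22 had the same sign there, 18 of the 23 lower calls and 4 of the 16 higher ones. Among those 4 is the unnamed rise of 3.31, which was bright only through its values with fish oil and with both oils. Over all 3269 bright probe sets, 1817 were higher with both oils than with fungal oil and 1439 lower. Beside those shares the lower calls kept their sign more often and the higher calls less often. Fabp5 read 238 with both oils and 593 with fungal oil (-1.32), Apoa4 117 and 781 (-2.74), Acly 878 and 1568 on chip A (-0.84) and Aqp8 219 and 352 (-0.68). These genes were again lower with fish oil. Cyp4a10 read 1010 with both oils and 894 with fungal oil (0.18), Cyp2e1 8671 and 9438 (-0.12), Errfi1 1949 and 2776 (-0.51) and Neat1 588 and 394 (0.58), so the rise of Cyp4a10 was small there and Neat1 read higher. Across the bright probe sets the differences of the 2 comparisons correlated with r = 0.02 on chip A and 0.07 on chip B, a description over probe sets that are not independent.

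By list, the 10 fatty acid synthesis genes were all lower with both oils than with fungal oil (median -0.43), among them Fasn at 966 with both oils and 2715 with fungal oil (-1.49), Thrsp at 1505 and 2947 (-0.97) and Scd1 at 5541 and 8749 (-0.66). Over all 3515 genes kept, 1923 were higher with both oils than with fungal oil and 1547 lower, with a median of 0.04. Of the 14 mitochondrial oxidation genes 11 were higher (median 0.16), with Eci1, an isomerase, at 555 and 405 (0.45) and Acadm at 2261 and 2014 (0.17). Of the 15 P450 genes 6 were higher and 9 lower, and of 11 macrophage markers 9 were higher and 2 lower. The difference between the effects of fish oil with and without fungal oil was itself tested by limma, which called 0 of 6537 probe sets (607 at an unadjusted p under 0.05) and 1 (0.0306%) of the 3269 bright ones, a probe set without a gene name. The differences named in this paragraph and the one before are therefore not shown to depend on fungal oil.

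**Figure D5:**
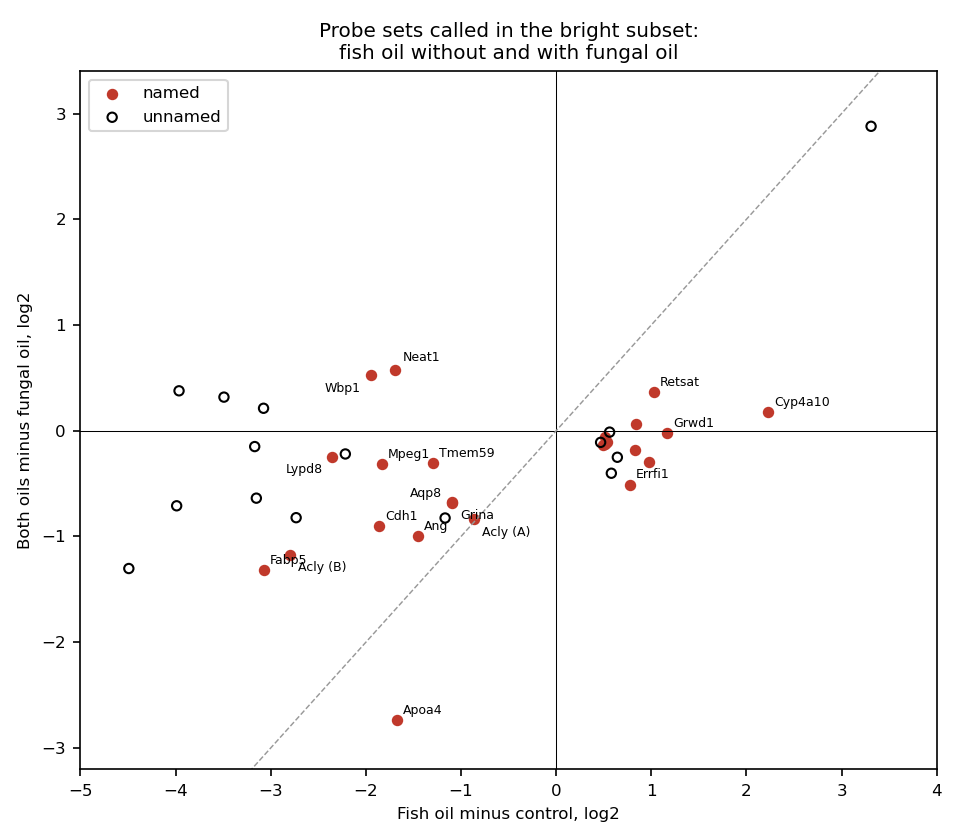
The 39 probe sets called in the bright subset, by log2 difference of fish oil minus control (horizontal) and of both oils minus fungal oil (vertical), with named genes filled and unnamed ones open and a dashed line of equal differences. Most lower calls lie below 0 on both axes, with Apoa4 at -1.68 and -2.74, while most higher calls lie near 0 on the vertical axis and 1 unnamed probe set lies at 2.88. That probe set entered the bright subset only through the RNAs with fish oil.

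The fungal oil RNA, read against the same 2 controls, can only be set beside the fish oil RNA gene by gene. Some called genes had similar values in both: Neat1 read 384 with fish oil and 394 with fungal oil, Errfi1 2601 and 2776, Cyp3a16 on chip B 2835 and 2805, and Aldh1a1 4274 and 3917. Fabp5 read 384 with fish oil and 593 with fungal oil, Apoa4 629 and 781, Acly on chip A 1754 and 1568, Aqp8 364 and 352, and Cyp4a10 1566 and 894, all outside the controls on the same side. Others lay further apart: Lypd8 read 69 and 346, Mpeg1 211 and 657, Grwd1 461 and 260, and Cyp2e1 13101 and 9438. Cd36, which was not called, read 591 and 223. These pairs were not tested. In the hippocampus, with 1 RNA per diet, Fabp5 read 823 with fish oil and 807 with the control diet, Acly on chip A 464 and 461, Grina 1250 and 1218, Gstp1 1193 and 1216 and Neat1 70 and 106, so the large liver difference of Fabp5 had no counterpart of its size there.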

How the data were processed

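RNA of mouse liver was measured on a pair of Affymetrix Mu11K arrays, chip A and chip B. The deposited tables hold 1 average-difference intensity per probe set, as whole numbers that can be below 0, with no detection calls used here. The trimmed mean intensity of the 10 liver arrays, with 2% cut from each end, lay between 150.3 and 150.5, so the authors had scaled each array to a common level before they deposited it. Which software and version produced them is not given in the sources used here. Probe sets were named through GEO's platform annotation, and no symbol needed an update through the RefSeq table.

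Intensities were floored at 15, 0.1 times that trimmed mean, and taken to log2. Limma 3.58.1 in R 4.3.3 was fitted per chip to 4 diet groups over the 5 liver RNAs, with an intensity trend, and Benjamini-Hochberg adjustment ran over both chips at 0.05. The fish oil group has 1 RNA, so its spread was taken to be that of the controls. The number of arrays limits the precision. The fit was tested on simulated data. Python 3.11.15 with pandas 2.3.3, numpy 2.4.6 and scipy 1.17.1 did the rest.

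Named genes were those called in all kept probe sets or in the bright subset (mean at or above percentile 75 of the chip), the 15 largest differences each way in the bright subset that lay 1.5-fold outside both controls, and members of 45 gene lists. The lists hold 1009 genes, of which 541 were kept. The comparison, the lists and the tests were chosen with earlier results of these data known. Alternatives were quantile normalization, other floors, no filter, the bright subset, no trend, an additive fit of the oils, fish oil and control RNAs alone, each control left out, averages over the probe sets of a gene and, chosen after seeing the data, combinations with the bright subset and chip A alone.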

Additional observations from a re-analysis of the deposited data

Results flagged for a closer look

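A single result stood out by the test of fish oil with fungal oil against fish oil without it. A chip B probe set with no gene name read 611 with fish oil, against 165 and 212 in the controls (1.71), and -26 with both oils, against 415 with fungal oil (-4.79). The difference with fungal oil minus that without it was -6.5 on the log2 scale (limma in the bright subset, adjusted p = 0.0433). The value with both oils is below the floor, so the size depends on the floor, and the call was not made after quantile normalization or without an intensity trend.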

How the results depend on the processing

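The number of probe sets called for fish oil ran from 0 over all kept probe sets to 395 without the filter on dim probe sets (383 of them with both controls at the floor, 3 among the 39), 39 in the bright subset, 3 in that subset after quantile normalization, 10 there without an intensity trend and, in the additive fit with a control left out, 0 to 2. All 39 kept their sign after quantile normalization and in the additive fit without control 1. The additive fit without control 2 was not checked for this. Leaving out the filter or the trend does not change a difference, so no sign could turn there. The test of fish oil with against without fungal oil gave 821 calls without the filter and 1 in the bright subset. At least 1.5-fold above both controls lay 838 probe sets without the filter, 82 in the bright subset, 113 on chip A alone and 805 to 869 with a control left out, against 339. At least 1.5-fold below lay 150 in the bright subset, 241 on chip A alone and 950 to 984 with a control left out, against 605. Where a control was left out the value had to pass only the other, and the subsets test fewer probe sets. The cause of the other shifts was not tested. Of the list medians, 235 stayed within a margin set by the median difference between the controls over the list, and 135 moved by more. That margin is near 0 for some lists, where a small shift counts as a move. The medians of nuclear receptors (-0.03, against 0.13), heat shock genes (0.04, against -0.03), cell cycle genes (0.07, against -0.004) and neutrophil markers (0.05, against -0.33) turned sign without control 1, and that of glycerolipid assembly (0.04, against -0.003) without control 2. Of the differences of single probe sets, 196 stayed within the spread of the controls at that probe set and 14 moved by more, and none of these reversed. No paired analysis was possible because fish oil and control share only replicate number 1. With 1 fish oil RNA and 1 residual degree of freedom, differences in dim probe sets could not be separated from the spread of the controls, which was 0.80 (SD) on chip B and 0.50 on chip A.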
